A study of Drosophila melanogaster with 2 samples.

Results

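Summits of CG6276-eGFP binding that lay at a promoter, at the transcript start or just downstream of it, were described in whole Drosophila melanogaster prepupae. Of the 7326 peaks in the authors' list thresholded by the irreproducible discovery rate (IDR), 798 were of this kind, or 10.9% (95% Wilson interval 10.2% to 11.6%). A peak was taken when the annotated transcript start nearest to its summit was 0 to 500 bp away and the summit lay at that start or beyond it in the direction of transcription. Chromosomes 2L, 2R, 3L, 3R, 4 and X were used, with the starts of Ensembl release 115 and transposable elements left out. Position alone chose these 798 peaks within that list, which the authors had already thresholded on how well the replicates' peaks repeat.

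The animals were mixed-sex prepupae of a transgenic line with enhanced green fluorescent protein (eGFP) on the C-terminus of CG6276, and chromatin was precipitated with an anti-GFP antibody. The labels give their age as 72 days, which is not an age a fly prepupa can have, and 1 group of 2 biological replicates, numbered 2 and 4. Which promoter drives the fusion, and how much untagged CG6276 protein these animals have, is not stated in the labels. No other genotype, stage or control library was analysed, so the comparisons below are between sets of peaks and not between conditions. Peaks are not independent replicates, and each p-value describes these peak lists.

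A transcription start is where an RNA polymerase begins an RNA, and regulatory proteins usually bind in open chromatin close to it. Proteins that bind before the start can help to place the polymerase, whereas sequence just after the start holds downstream core promoter elements and, in many Drosophila genes, a polymerase that pauses before elongation. A summit is the base at which a peak caller saw the most signal. Whole prepupae mix larval tissues that are about to be lost with growing adult tissues, so a peak gives no cell type.

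Sequences at some of the strongest downstream summits, those ranked 1, 2, 4 and 8 by signal value, differed from one another. They are shown 5′ to 3′ on the strand of the gene, in dm6, with each run of at least 6 A or 6 T in capitals because such runs are compared below. The PNPase stretch is chr3R:31404645-31404674 (minus strand), Cat is chr3L:18822880-18822960 (plus strand), Chro is chr3L:22878885-22878914 (minus strand) and hdly is chr3R:20914338-20914367 (plus strand).
PNPase: agaaacgtacagggcttttattgtaagatt
Cat: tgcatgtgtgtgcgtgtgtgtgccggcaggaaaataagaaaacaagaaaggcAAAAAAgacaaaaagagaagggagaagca
Chro: ctgcagttagtttaaagctatcgacaggca
hdly: atcgcgatccgcgagaaaaacatAAAAAAc
The Cat stretch lay in an intron and holds GT repeats before an A-rich stretch on the gene's strand. The stretches at the summits of yip2, Mtpalpha, Unr and tank, ranked 3, 5, 6 and 7, are not shown and held no run of 6 A or 6 T.

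A further set of sequences is shown because the same 9 bases recurred in peaks of genes for fatty acid breakdown. Capitals mark CAAAGTCCA or its reverse complement, a sequence known to be bound by HNF4 nuclear receptors. The element was picked after the windows of the strongest peaks and a 6-mer comparison of strong with weak downstream summits had been read, so its counts carry no test. The Mtpalpha stretch is chr2L:9576335-9576364 (minus strand), colt is chr2L:2769906-2769935 (minus strand), scu is chrX:18091443-18091523 (plus strand), CPT2 is chr3L:2981037-2981066 (plus strand) and Arc42 is chr3R:19877894-19877974 (plus strand).
Mtpalpha: gccgcataacTGGACTTTGaactttgtact
colt: tgcacataggTGGACTTTGaaccctgctgc
scu: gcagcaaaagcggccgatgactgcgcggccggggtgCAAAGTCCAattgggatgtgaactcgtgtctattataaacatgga
CPT2: actttctgttgTGGACTTTGaaacgtcgcc
Arc42: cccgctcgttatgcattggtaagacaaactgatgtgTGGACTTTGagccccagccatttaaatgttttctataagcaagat
In 4 of these 5 the element read TGGACTTTG on the strand of the gene, and in scu it read CAAAGTCCA. Over all downstream windows with the element, 11 held TGGACTTTG on that strand and 8 held CAAAGTCCA, of which 1 held both.

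Downstream summits were the minority of promoter summits, and their number fell with distance from the start. They made up 798 of 2373 IDR-thresholded promoter summits, or 33.6% (95% interval 31.8% to 35.6%), against 1575 upstream. Among the strongest 7326 peaks of each replicate alone, 924 of 2598 promoter summits were downstream in replicate 2 (35.6%) and 728 of 2300 in replicate 4 (31.7%). Of the promoter summits in the authors' pooled list that overlapped no IDR-thresholded peak, 1354 of 3156 were downstream (42.9%, 41.2% to 44.6%). That pooled list was labelled as holding background, and these other pooled peaks are not a set of bound sites. The median downstream summit lay 183.5 bp after its start, with quartiles at 79.25 and 338.0 bp. The first 100 bp held 252 summits, or 31.6%, and the last band, 401 to 500 bp, held 109, or 13.7%.

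**Figure D1:**
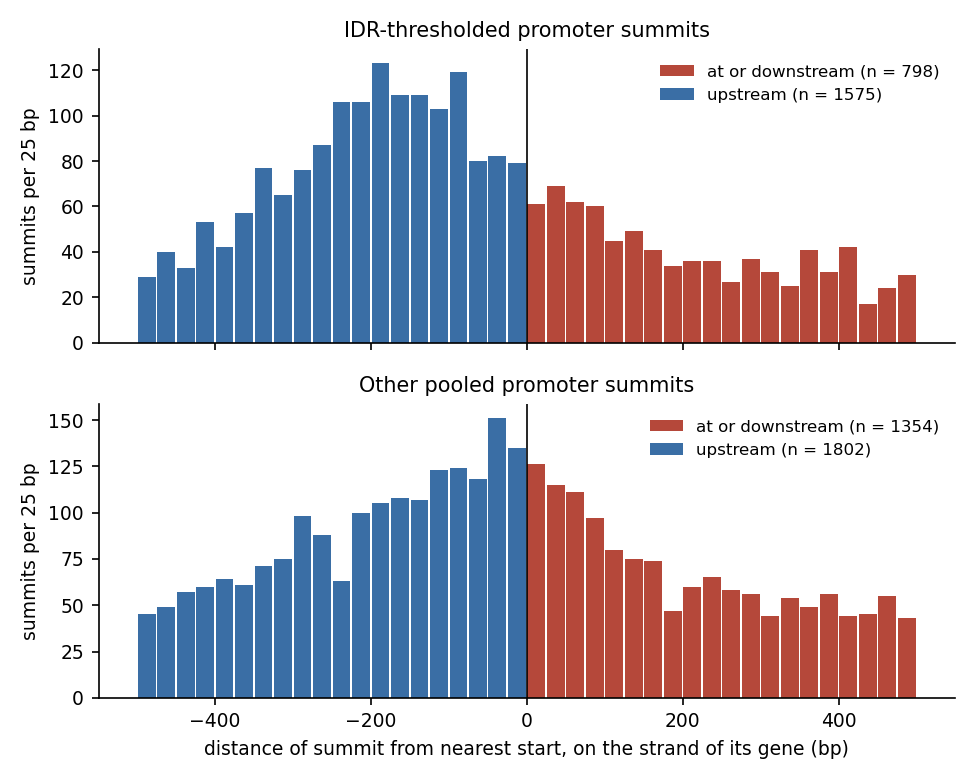
Distance of promoter summits from their nearest start (horizontal, bp, negative values upstream) against the number of summits per 25 bp (vertical), for IDR-thresholded peaks (top) and other pooled peaks (bottom). Downstream summits (red, 798 on top and 1354 below) thin out with distance, and upstream summits (blue) are more numerous in both panels.

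Peaks just inside and just outside the edges of the rule are given without a test. Strength is given throughout as the signal value, a unitless score from the authors' peak calling, used here only within a list. Just inside, summits at the start itself belonged to lolal (signal value 230.8) and ush (173.8). The replicate summits of lolal lay upstream of the start, at -32 bp in replicate 2 and -19 bp in replicate 4. Just outside, Hsc70-5 (753.6) and RpS7 (214.9) had summits 1 bp upstream. At the far edge CG42637 (488.4) and lncRNA:CR45353 (155.8) lay at 500 bp, and CG4615 (491.6) and lncRNA:CR43485 (140.4) at 501 bp.

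Most downstream summits lay in the 5′ UTR of the transcript that begins at the nearest start. There were 439 in a 5′ UTR (55.0%, 51.5% to 58.4%) and 94 in an exon of a non-coding transcript (11.8%, 9.72% to 14.2%), and introns held 25.2% (22.3% to 28.3%). Coding exons held 31 summits, or 3.88% (2.75% to 5.46%), and 33 lay beyond the end of a short transcript. Among the other pooled downstream summits the shares were 47.5% in a 5′ UTR (44.8% to 50.2%), 22.8% in an intron (20.7% to 25.1%), 17.3% in a non-coding exon (15.4% to 19.4%) and 8.27% in a coding exon (6.92% to 9.86%). These places were compared after the values were seen and carry no test. The place changed with distance along the transcript. In the first 100 bp 78.6% of downstream summits were in a 5′ UTR and 7.14% in an intron, whereas at 401 to 500 bp 16.5% were in a 5′ UTR and 49.5% in an intron.

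**Figure D2:**
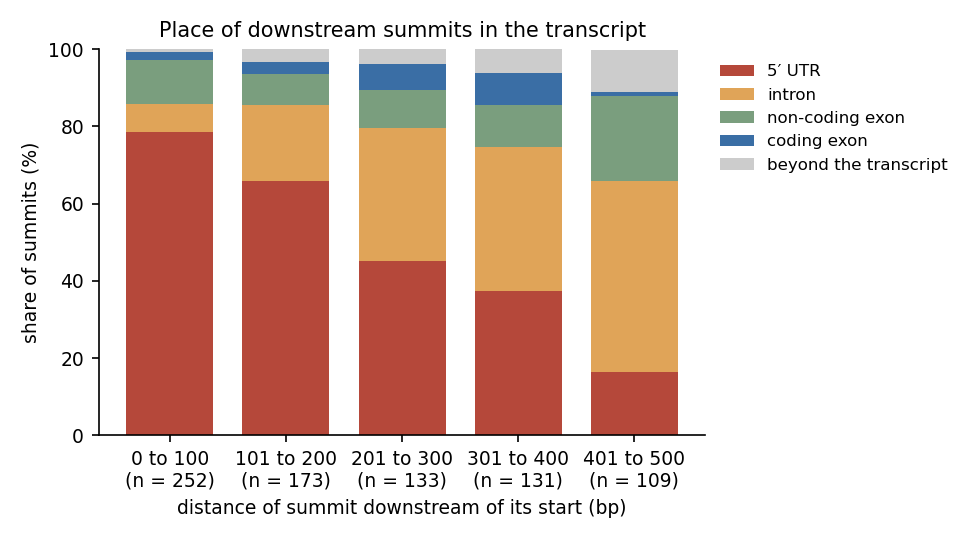
Share of the 798 downstream summits (vertical, %) by their place in the transcript that begins at the nearest start, in 5 bands of distance from it (horizontal, bp). The 5′ UTR share falls from the nearest band to the farthest, and the intron share grows.

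The 798 summits belonged to 755 distinct starts and 729 genes. Protein-coding genes owned the nearest start of 662 summits, non-coding RNA genes that of 116, transfer RNA genes that of 17 and pseudogenes that of 3. The start was the most upstream one of its gene for 549 summits (68.8%). For 337 summits (42.2%) the same gene had another start farther downstream than the summit, within 500 bp for 97 of them. An opposite-strand start lay within 500 bp upstream of the start for 164 (20.6%, 17.9% to 23.5%). Among the most upstream starts of all protein-coding genes the share was 28.2%. The 798 summits also include starts of other gene types and starts that are not the most upstream of their gene. The shares are therefore not of like starts, and whether they differ among like starts was not tested. For 554 summits (69.4%) no other start lay within 500 bp of the summit. The rest had a second start, of the same or another gene, that close. Of the 729 genes 174 also had an upstream promoter summit.

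Both replicates placed most of these summits on the same side of the start. A replicate peak was matched when it shared at least 50% of both lengths, a rule that narrow or wide peaks can fail, so a missing match does not mean that the peak was absent. Replicate 2 had a match for 725 of the 798 peaks, and its summit was again at or downstream of the same start in 695 (95.9%). Replicate 4 had a match for 675, with the summit at or downstream of the start in 637 (94.4%). The median shift of the summit was 13.00 bp in each replicate. Matches in both lists were found for 638 peaks, of which 579 (90.8%) had both replicate summits downstream, and 36 peaks had a match in neither. Over the 638, signal values of the replicates correlated with a Spearman rho of 0.638, and their log2 values with a Pearson r of 0.790. Those are descriptions across peaks that the IDR procedure had selected from these same lists, so they are not independent evidence of repeatability.

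**Figure D3:**
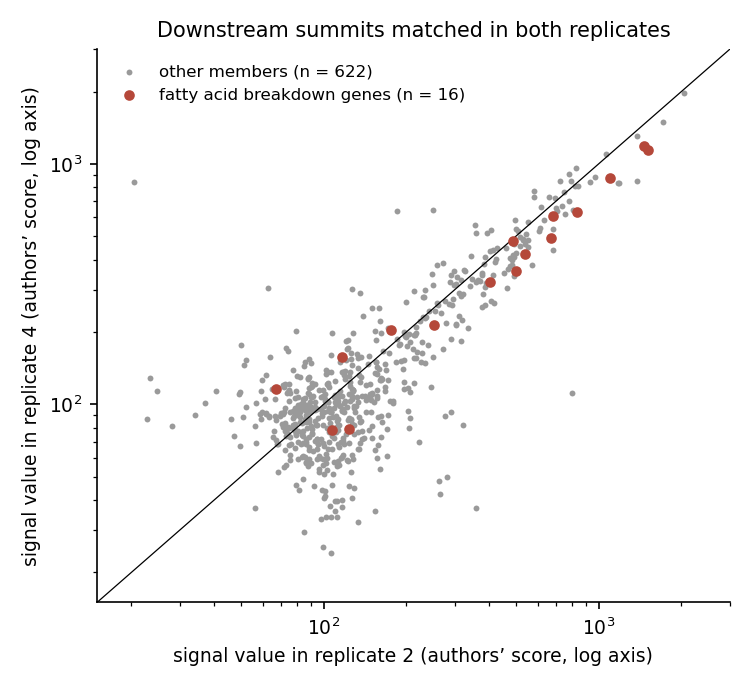
Signal value in replicate 2 (horizontal, log axis) against replicate 4 (vertical, log axis) for the 638 downstream summits matched in both lists. Points for genes of fatty acid breakdown (red, 16 summits, a list drawn up after the strongest peaks had been read) reach from the low cloud to the strong end.

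Downstream summits were on balance weaker than upstream ones. The median signal value was 225.0 downstream (quartiles 174.5 and 376.0, range 139.5 to 4005), against 297.0 upstream (quartiles 193.5 and 605.3, range 139.6 to 4494), so the sets overlapped over nearly their whole range. The share above the median signal value of all IDR-thresholded peaks was 41.5% of downstream summits (38.1% to 44.9%), against 60.0% of upstream summits (57.6% to 62.4%). That gave an odds ratio of 0.473 (p adjusted over the 8 comparisons of shares = 5.92e-17, two-sided Fisher exact test). In the strongest 20% of all peaks were 17.8% of downstream summits, against 30.7% of upstream summits (adjusted p = 1.59e-11 at an odds ratio of 0.488, Fisher exact test). The share matched in both replicates was 79.9% downstream and 78.2% upstream, a difference that did not pass the threshold (Fisher exact test, adjusted p = 0.387). The share on X was 20.1% downstream and 19.2% upstream (Fisher exact test, adjusted p = 0.661).

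Strength was not shown to change along the first 500 bp. Of the summits 0 to 100 bp downstream 38.5% were above the same median signal value, against 45.4% of those more than 300 bp downstream (adjusted p = 0.162 at an odds ratio of 0.752, Fisher exact test). Band by band the median signal value was 216.0, 225.0, 225.0, 265.0 and 216.0, from nearest to farthest.

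Downstream summits belonged to protein-coding genes less often than upstream ones, with 83.0% (80.2% to 85.4%) against 90.0% (88.4% to 91.4%) of nearest starts (adjusted p = 3.63e-06 at an odds ratio of 0.543, Fisher exact test). The difference was -7.01 percentage points, and -4.55 among the strongest peaks of replicate 2, without replicate 4. Long non-coding RNA genes were the nearest for 95 downstream summits and antisense RNA genes for 12. The strongest of these, named after their values were seen, were asRNA:CR45928 (signal value 2001), lncRNA:CR44619 (1679), lncRNA:CR44091 (1641) and lncRNA:CR44149 (1640). ChIP peaks carry no strand, so a peak at such a start cannot be given to that gene rather than to one on the other strand. The strongest transfer RNA peaks were weaker, at tRNA:Arg-TCT-1-1 (412.4), tRNA:Lys-TTT-1-1 (382.7) and tRNA:Gln-TTG-1-3 (380.1). Of these, tRNA:Arg-TCT-1-1 had its replicate 4 summit upstream of the start (-6 bp), and tRNA:Gln-TTG-1-3 its replicate 2 summit (-9 bp). Transfer RNA genes have near-identical copies, and the handling of reads that map to several copies is not stated in the labels.

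The strongest downstream summits lay at genes for a mitochondrial enzyme and for catalase. PNPase, whose product is an exonuclease of mitochondrial RNA, held the strongest one, in its 5′ UTR 80 bp after the start (chr3R:31404465-31404846, signal value 4005). Its signal values were 2039 in replicate 2 and 1970 in replicate 4, rank 4 and rank 3 of those lists. Cat, which encodes the peroxide-degrading enzyme catalase, had its summit 316 bp into the gene, in an intron (chr3L:18822584-18823228). Its signal value was 3207, with 1710 in replicate 2 and 1499 in replicate 4. In both genes the replicate summits stayed within 4 bp of the reported one. For PNPase, but not for Cat, another start lay within 500 bp of the summit.

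Chro, Unr and GstE13 were also among the 15 strongest summits matched in both replicates. Chro, a chromodomain protein of polytene interbands and the mitotic spindle, had a summit 84 bp after its start (chr3L:22878702-22879107), with signal values of 1375 in replicate 2 and 1301 in replicate 4. Unr, a cold shock domain protein that represses msl-2 translation in females, had one at 338 bp in its 5′ UTR (chr3L:8440976-8441623), with 1379 in replicate 2 and 848.2 in replicate 4. The replicates thus differed more for Unr than for Chro. GstE13, a glutathione S-transferase, had 972.3 in replicate 2 and 886.4 in replicate 4. The remaining strong summits were at tank (2156), hdly (2016), CG9147 (1803), CG32772 (1790) and CG8360 (1644), and all these had a match in both replicates. The replicate 4 summit of CG9147 lay at -3 bp, upstream of the start. Another start lay within 500 bp of the summit for Chro, GstE13, CG9147 and CG8360.

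Summits in coding exons were few. The strongest that stayed downstream in both replicates was that of AGO2, an Argonaute of the small interfering RNA pathway, 353 bp after its start (chr3L:15554262-15554643). Its signal value was 1368, with 753.0 in replicate 2 and 620.0 in replicate 4. Acadvl followed with a signal value of 1313, CG5167 with 880.2, Fatp1 with 386.0 and CG44004 with 290.7. In introns the strongest after Cat and yip2 were those of Mtpbeta (1992), CG8320 (1496) and scramb2 (1414), the last a phospholipid scramblase gene.

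Downstream summits were frequent among a list of 40 genes for fatty acid breakdown and related steps. The list was drawn up after the strongest peaks had been read and several of its genes had been seen there, so it gets no test and its share is a description only. It was written as 53 symbols, of which 13 did not match the annotation. Of the 40 genes 20 had a downstream summit, each from its own peak, against 4.28% of all protein-coding genes (597 of 13945). Upstream summits were found at 10 of the 40, against 8.64% of all protein-coding genes, and 14 of the 40 had neither. In the strongest peaks of replicate 2 alone 21 of the 40 had a downstream summit, against 5.13% of all protein-coding genes, and in replicate 4 alone 19 had one, against 3.93%. The IDR-thresholded list was made from these replicates, so the replicate counts are not independent evidence. The 20 peaks had a median signal value of 741.7 (range 153.3 to 2700), and 12 were in the strongest 20% of all IDR-thresholded peaks. For colt, pdgy, Arc42, Acox57D-p, Acsl and Acox3 another start, of the same or another gene, lay within 500 bp of the summit.

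Many of the members with a downstream summit act in the mitochondrial oxidation of fatty acids. Activation and import were represented by pdgy, an acyl-CoA synthetase (signal value 859.8), by colt, the carnitine-acylcarnitine carrier (1181), and by CPT2, a carnitine palmitoyltransferase (508.1). whd, which encodes the other carnitine palmitoyltransferase of the list, had an upstream summit only (229.2). For colt the values were 674.1 in replicate 2 and 490.8 in replicate 4, and for pdgy they were 502.1 and 359.1 in the same order. pdgy also had a stronger upstream summit (1954). CPT2 had 314.0 in replicate 2 and no match in replicate 4.

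The enzymes of the oxidation cycle itself held the strongest summits of the list. Mtpalpha and Mtpbeta encode the subunits of the trifunctional protein, which carries out the later steps for long chains. Mtpalpha had a summit 397 bp after its start (chr2L:9576077-9576771), with 1463 in replicate 2 and 1191 in replicate 4. Mtpbeta had one at 209 bp (chr2R:23868107-23868714), with 1099 in replicate 2 and 873.2 in replicate 4. yip2, a thiolase, had 1519 in replicate 2 and 1143 in replicate 4, at 170 bp (chr2L:9914968-9915758). All 3 ranked 85 or better in both replicate lists. Of the acyl-CoA dehydrogenase genes, Acadvl had 682.9 in replicate 2 and 608.4 in replicate 4, Arc42 had 252.8 and 213.8, and Mcad had 107.7 and 78.02, in the same order. Mcad had a stronger summit upstream (1210) than downstream (153.3). The hydratase gene Echs1 had 391.6 in replicate 2 and no match in replicate 4, and the dehydrogenase gene scu had 539.9 in replicate 2 and 421.8 in replicate 4.

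Electron transfer and the use of the products were covered too. Etf-QO, which passes electrons from these dehydrogenases to ubiquinone, had 836.6 in replicate 2 and 633.2 in replicate 4, and wal, a subunit of the electron transfer flavoprotein, had 402.8 and 323.8. Etfb, the other subunit, had an upstream summit only, 6 bp before its start (1003). SCOT, which acts in ketone body use, had 490.3 in replicate 2 and 479.7 in replicate 4. Hnf4 and Hmgs do not break down fatty acids. Hnf4 encodes a nuclear receptor that activates such genes in Drosophila, and it had a weak downstream summit (166.6) beside a stronger upstream one (936.7). Hmgs, which makes a precursor of isoprenoids, had 197.1 downstream and 254.8 upstream. The peroxisomal acyl-CoA oxidase genes Acox57D-p (413.0, matched in neither replicate) and Acox3 (267.0) and the acyl-CoA synthetase gene Acsl (287.3) also had downstream summits. CRAT, Egm, Had1, Had2, Acat2 and Hibch were among the 14 genes with none on either side.

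The HNF4 element was found in 18 of the 798 downstream windows, which reach 100 bp to each side of the summit, searched on both strands. That was 2.26%, against 0.571% of upstream windows, 0.295% of other pooled downstream windows and 1.05% of all IDR-thresholded windows. Windows of the same length centred 183 bp after the most upstream start of every protein-coding gene held it in 0.358%. Of the 20 fatty acid peaks 7 held it (Mtpalpha, Mtpbeta, colt, scu, Echs1, CPT2 and Arc42), against 11 of the other 778. Both the element and the list were picked after strong peaks of this same set had been read. These contrasts therefore carry no test and are not independent support. The strongest of those 11 was at CG5167 (880.2), followed by lncRNA:CR45328 (472.7), Lpin, a phosphatidate phosphatase of fat storage (391.2), tRNA:Gln-TTG-1-3 (380.1) and CG15922 (319.5). The remaining 6 were at lncRNA:CR44661 (245.2), Tmlh, an enzyme of carnitine synthesis (238.2), fbl, a pantothenate kinase of coenzyme A synthesis (228.2), nuf (209.9), CAH1 (168.2) and spz4 (164.7). The summits of CG5167, Tmlh and fbl lay in coding exons, and that of tRNA:Gln-TTG-1-3 lay in the exon of the transfer RNA. The match was centred within 30 bp of the summit in 9 of the 18. A sequence match is a description and shows no binding by any factor.

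The other 21 gene lists had between 0% and 28.6% of their genes with a downstream summit. Against the 4.28% of all protein-coding genes, signalling lists stood at 4 of 14 for the JNK pathway, 5 of 21 for the EGF receptor pathway, 3 of 24 for insulin and TOR signalling, 2 of 16 for the Hippo pathway and 2 of 23 for the Notch pathway. Upstream summits were found at 6, 7, 7, 4 and 11 genes of these lists in the same order, against 8.64% of all protein-coding genes. JNK members were led by kay, the Fos subunit of AP-1 (signal value 246.5), raw (227.4) and the kinase gene hep (224.4). EGF receptor members were led by csw, a phosphatase (838.4), aop, a repressor (257.4), and the receptor gene Egfr (195.0). Other than csw, these had signal values no higher than 257.4, near the 225.0 median of all downstream summits. The lists differ in how many starts their genes have, and the counts were not adjusted for that. Among the strongest peaks of replicate 4 alone, the EGF receptor count was 3 and the Hippo count 1, over 1.5 times lower.

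Genes of the ecdysone response, the steroid programme of metamorphosis, had 4 downstream summits among 28 genes and 15 upstream, where the share of all protein-coding genes was 4.28% downstream and 8.64% upstream. Eip75B, a nuclear receptor gene, had one 49 bp after a start (chr3L:17999565-17999980), with 684.8 in replicate 2 and 440.2 in replicate 4. ImpL2, an insulin-binding protein gene (248.0), and Eip63E, a cyclin-dependent kinase gene (220.3), were weaker. Patterning genes had 0 downstream and 9 upstream of 43, and heat shock genes 0 and 6 of 20. Among the strongest peaks of replicate 2, 3 heat shock genes and 1 patterning gene had a downstream summit, and among those of replicate 4 1 of each had one, so both 0 counts depend on the list used.

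Of 34 genes of the Polycomb and trithorax groups, whose products hold other genes silent or active, 7 had a downstream summit. Upstream summits were found at 8 of the 34. The share of all protein-coding genes was 4.28% downstream and 8.64% upstream. ph-p, a subunit of Polycomb repressive complex 1, had a summit 421 bp after its start (1944), in a wide peak matched in neither replicate. psq, a BTB-domain protein, had 724.1 in replicate 2 and 852.9 in replicate 4, also at 421 bp. Trl, which encodes GAGA factor, had 390.4 in replicate 2 and 319.5 in replicate 4, at 130 bp, and it was also 1 of the 2 of 16 pausing and elongation genes beside fs(1)h (181.7).

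Cytosolic ribosomal protein genes had 12 downstream and 8 upstream of 88, the upstream share of 9.09% being near the 8.64% of all protein-coding genes, with weak peaks led by RpS15 (266.2), RpL41 (237.4) and RpS19a (227.7). Their count was 18 among the strongest peaks of replicate 2 and 7 among those of replicate 4, so it was over 1.5 times higher without replicate 4 and over 1.5 times lower without replicate 2. Fat body and lipid genes had 5 of 23, led by Lpin (391.2), the lipid droplet gene Lsd-1 (378.3) and the lipoprotein receptor gene LpR1 (223.2). Muscle genes had 5 of 29, led by the integrin gene mys (246.5). The fat body and lipid count was 3 in replicate 2 alone and the muscle count 3 in replicate 4 alone, both over 1.5 times lower. Upstream summits were found at 6 of the 23 fat body and lipid genes and 8 of the 29 muscle genes. Cell death and autophagy genes had 3 of 27 downstream, led by Atg13 (1008), and 4 of 27 upstream. Near the 4.28% of all protein-coding genes were translation factors with 2 of 33 (6.06%), at eRF1 (177.6) and eIF4H1 (169.5). So were neuronal genes with 1 of 25 (4.00%), at Syx1A (174.5), with 2 in each replicate alone. Mitochondrial ribosomal proteins had 1 of 73, the strong summit of mRpL23 (1279, with 616.1 in replicate 2 and 663.7 in replicate 4). Cell cycle genes had 0 of 31, proteasome subunits 0 of 48, cuticle proteins 0 of 123 and chemosensory genes 1 of 223, at Or67a (143.8), with 0 in either replicate alone.

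**Figure D4:**
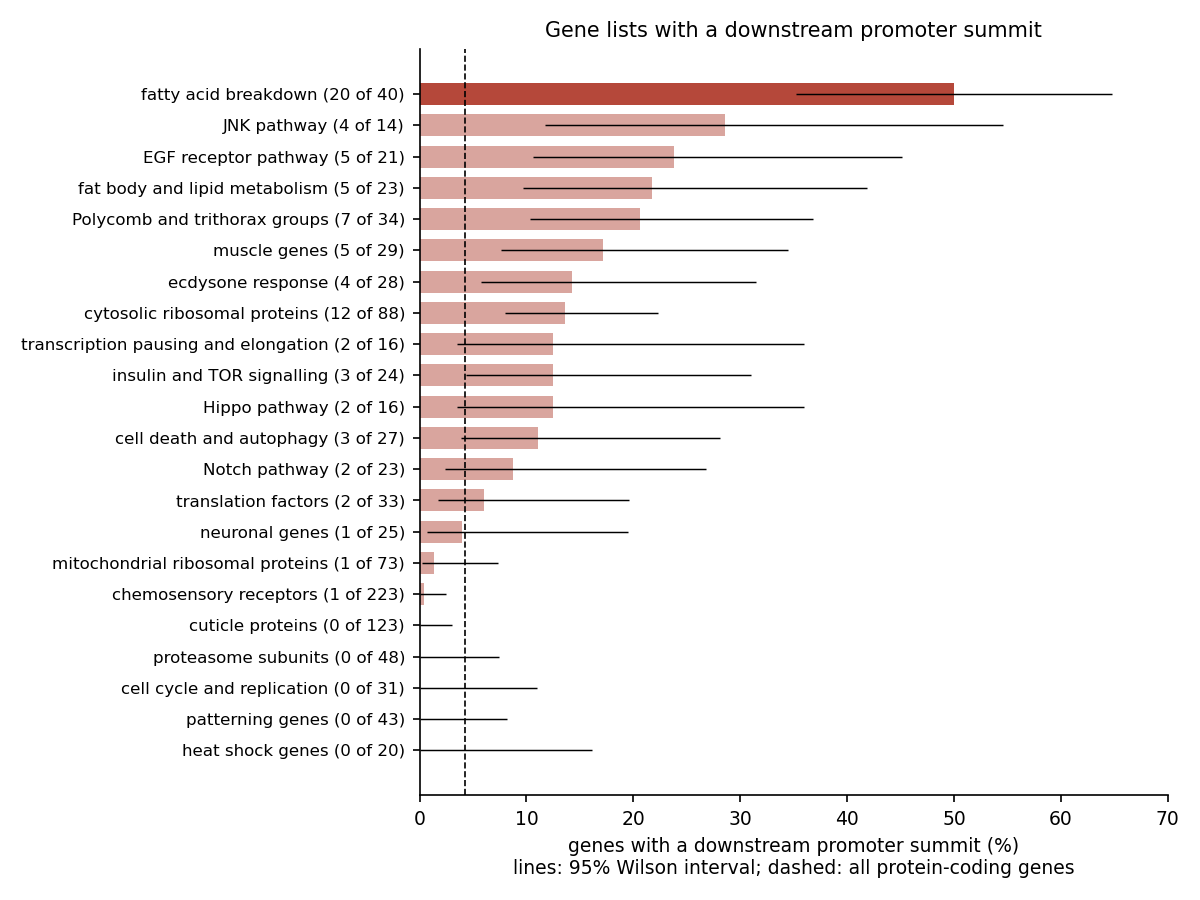
Share of the genes of each list with a downstream promoter summit (horizontal, %, with 95% Wilson intervals), from highest to lowest. The dashed line marks the 4.28% of all protein-coding genes, and the dark bar is the fatty acid breakdown list, drawn up after the strongest peaks had been read (20 of 40).

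Sequence around downstream summits was richer in G and C than around upstream summits. The median GC share of the windows was 42.29% downstream, against 35.82% upstream. Windows below the median of all IDR-thresholded summits made up 20.9% of downstream summits (18.2% to 23.9%), against 49.2% of upstream summits (46.7% to 51.7%). That gave an odds ratio of 0.273 (adjusted p = 2.95e-41, Fisher exact test). Sequence before and after a start differs in composition, so the same side was compared as well. Of the other pooled downstream windows 15.9% were below that median, fewer than the 20.9% of IDR-thresholded ones (adjusted p = 0.00557 at an odds ratio of 1.40, Fisher exact test). With protein-coding starts only, that second difference was 2.16 percentage points and no longer passed (Fisher exact test, adjusted p = 0.252).

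**Figure D5:**
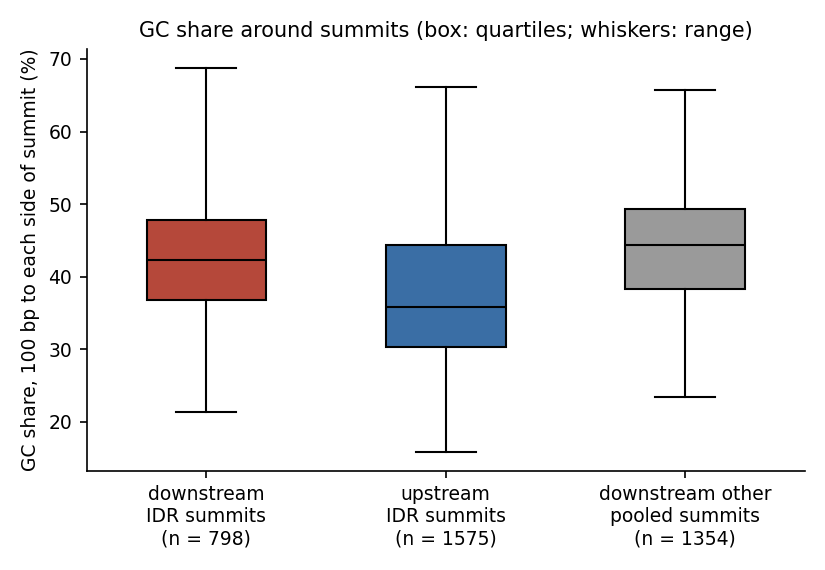
GC share of windows reaching 100 bp to each side of summits (vertical, %) for downstream IDR-thresholded, upstream IDR-thresholded and other pooled downstream summits. Boxes span the quartiles with a line at the median (42.29, 35.82 and 44.28%), and whiskers span the range.

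Short sequences followed that composition against upstream windows. Of 2080 6-mers, counted on both strands, 250 were in a larger share of downstream windows (12.0%) and 221 in a smaller share (10.6%; Fisher exact tests, Benjamini-Hochberg adjusted over all 2080). Of the 221 lower ones 210 had 4 or more A or T bases, and of the 250 higher ones 219 had 3 or fewer. How many of all 2080 6-mers have each composition is not given here. The lower ones were led by ATTTAA, in 22.9% of downstream and 40.0% of upstream windows (Fisher exact test, adjusted p = 8.34e-14). The strongest of the higher ones were CA repeats and related sequences. ACACAC was in 27.4% of downstream windows, against 14.0% upstream (adjusted p = 3.41e-12 at an odds ratio of 2.33, Fisher exact test), and CACGCA in 18.0%, against 8.25%.

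Against other pooled downstream windows, a few 6-mers rich in A and T were more frequent. There 8 of 2080 were in a larger share of the IDR-thresholded windows (0.385%) and 0 in a smaller share (0%), while 91 and 136 had an unadjusted Fisher p under 0.05. All 8 had 5 or 6 A or T bases, and how many of all 2080 have that many is not given here. The IDR-thresholded windows also had a lower median GC share than the other pooled ones (42.29% against 44.28%). Whether the 8, or the runs of A below, differed beyond that composition was not tested. AAAAGA was in 34.2% of IDR-thresholded downstream windows, against 24.1% of the others (adjusted p = 0.00121 at an odds ratio of 1.64, Fisher exact test), and AAAAAA in 49.9%, against 39.2% (odds ratio 1.54, adjusted p = 0.00121). A run of 6 A on the strand of the gene was in 36.3% of downstream windows (33.1% to 39.7%), against 26.1% of upstream windows and 24.3% of other pooled downstream windows. Windows centred 183 bp after the most upstream start of every protein-coding gene held it in 15.8%. A run of 6 T on that strand was in 24.1% of downstream windows, against 28.8%, 21.1% and 10.9% of those sets in the same order. The strands were compared after the values were seen and carry no test.

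Of 15 consensus motifs, searched on both strands, the TATA box TATAAA differed between downstream and upstream windows. It was in 21.4% of downstream windows (18.7% to 24.4%), against 34.0% of upstream windows (31.7% to 36.4%; odds ratio 0.529, Fisher exact test, p adjusted over the 15 motifs = 1.91e-09). Other pooled downstream windows held it in 20.5% (Fisher exact test, adjusted p = 0.795) and all IDR-thresholded windows in 32.4%. TATAAA holds only A and T, and downstream windows were richer in G and C than upstream ones. Whether it differed beyond that composition and the side of the start was not tested. Of the strongest downstream summits with a match within 30 bp, 3 are shown with the match in capitals. They are lncRNA:CR44149 at chr2L:9568701-9568730 (minus strand), scramb2 at chr3L:3046399-3046479 (minus strand) and mRpL23 at chr3L:2373592-2373621 (minus strand).
lncRNA:CR44149: aaagggaaaaaTATAAAattatttgcagac
scramb2: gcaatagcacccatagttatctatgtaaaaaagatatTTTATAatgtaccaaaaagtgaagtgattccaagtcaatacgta
mRpL23: gtgtggaatatTTTATAgttacagcgtaat
The summits beside these matches lay 79, 378 and 83 bp after their nearest start. For lncRNA:CR44149 and mRpL23, but not for scramb2, another start lay within 500 bp of the summit.

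The other 14 motifs did not pass. The GAGA element GAGAG was in 34.3% of downstream windows, against 36.3% upstream (adjusted p = 0.683) and 29.0% of other pooled downstream windows (adjusted p = 0.115), by Fisher exact tests. CAGTG was in 42.2%, against 37.8% upstream (adjusted p = 0.275) and 36.9% of other pooled downstream windows (Fisher exact tests, adjusted p = 0.115). The initiator core TCAGT was in 31.0%, against 34.3% and 35.7% of those sets (Fisher exact tests, adjusted p = 0.368 and 0.134). Motif 1 core GGTCACAC and the DRE TATCGATA were each in 0.752% of downstream windows, and the half-site of nuclear receptors AGGTCA in 3.63%. None of the 15 passed against other pooled downstream windows, where 3 had an unadjusted Fisher p under 0.05.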

How the data were processed

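The data were peak lists of anti-GFP ChIP-seq from 2 biological replicates of 1 group. The authors deposited a list per replicate, a pooled list and an IDR-thresholded list on dm6, and these 4 were used, unconverted, as deposited, with positions given 1-based. The deposited signal value is a score of the authors' peak caller. The deposited −log10 q-value was at its cap in 53.6% of IDR-thresholded peaks and was not used to rank them. Not given in the sources used here are the aligner, the peak caller and the IDR threshold. The sequencing depth is likewise unknown, and intervals cover only the counting of peaks or genes.

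Starts and transcripts were those of Ensembl release 115 (BDGP6.54), and sequence from the RefSeq Release 6 genome, the dm6 build, within whose chromosome lengths all peaks lay. Upstream summits lay 1 to 500 bp before their nearest start. Other pooled summits came from pooled peaks that overlapped no IDR-thresholded peak. Shares were compared by two-sided Fisher exact tests with Benjamini-Hochberg adjustment over 8 comparisons, 15 motifs or 2080 6-mers, at a threshold of 0.05 (scipy 1.17.1), in windows of 100 bp to each side of a summit. The functions were tested on simulated data. Alternatives changed the distance limit, starts, list, strength, match and window.

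The peaks and the gene lists were chosen with earlier results of these data known. Of the symbols in the first 21 lists 18 did not match the annotation. Genes were named by rank of signal value: the 15 strongest peaks matched in both replicates, up to 3 per list, up to 5 per place, and those nearest to the edges of the rule. Genes of fatty acid breakdown and holders of the HNF4 element were named after their values were seen, as was each comparison marked so.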

Additional observations from a re-analysis of the deposited data

How the results depend on the processing

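Under 9 other settings and 1 added after the data were seen (summits with no other start within 500 bp), the differences between downstream and upstream summits in signal value, GC share and protein-coding starts kept their direction and passed the threshold in every setting that gave a value. The difference in GC share from other pooled downstream summits was 5.05 percentage points, did not pass with protein-coding starts only (2.16), and was larger within 1000 bp (9.45) and in the stronger 50% of peaks (13.7). The difference in protein-coding starts from upstream summits was -3.87 points within 250 bp, against -7.01. The number of downstream summits was 493 within 250 bp, 1240 within 1000 bp and 331 in the stronger 50% of peaks. Of the 2080 6-mers, the share that differed from upstream windows was 7.31% within 250 bp, 14.5% within 1000 bp, 7.45% in the stronger 50% and 12.3% with windows of 50 bp to each side, against 22.6%. From other pooled downstream windows it was 0.144%, 4.04% and 1.20% in the first 3 of these settings, against 0.385%. Motifs past the threshold against other pooled downstream windows numbered 2 within 1000 bp, against 0, and those against upstream windows 1 to 2 with 1 replicate left out. The cause of these changes was not tested, beyond the smaller or larger sets that the settings use. A single replicate gives no value for matching in both, and protein-coding starts give none for the share of protein-coding genes. No paired analysis was possible because there is 1 group. Depth, the control and the background in the pooled list limit every comparison here.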
